A study of Mus musculus with 18 samples.

Results

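Myc and the nucleolar genes of ribosome assembly were followed as a set of 40 genes in mouse CD4+ T cells activated at 4 peptide doses. Members were the features of the deposited expression table whose gene name is on a fixed list of 40 names, and all 40 names were found among 15698 named features. The T cells carried the transgenic 5C.C7 T cell receptor, which recognises a cytochrome c peptide, and came from spleen and lymph node. Activation lasted 4 days on P13.9 fibroblasts that presented pPCC, with the peptide given at 0.01, 0.1, 1.0 or 10 µM. The design has 6 groups of 3 libraries, since the P13.9 line alone and unactivated naive CD4+ T cells were also sequenced. The stated purpose was to see how T cell receptor signal strength during activation changes the outcome of T helper differentiation. No label states that replicate libraries are from different mice or cultures, so each p-value measures only the spread between these samples. Nor is removal of P13.9 cells before RNA extraction mentioned.

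MYC is a transcription factor that pairs with MAX, binds the E-box CACGTG and raises the output of many genes of growth and ribosome production. Ribosomes are built in the nucleolus, where RNA polymerase I makes the long ribosomal RNA precursor. Small nucleolar ribonucleoproteins (snoRNPs) then modify it: box C/D particles guide ribose methylation and box H/ACA particles guide pseudouridylation. Further assembly factors fold, cut and export the small and large subunits. In T cells, MYC is known to be induced by antigen and to be required for the growth of activated blasts.

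Promoter windows were taken from RefSeq (GRCm38.p6) and run from 250 bases before an annotated start to 50 bases after it, in the direction of transcription. Windows were found for 35 of the 40 members, and Myc, Fbl, Npm1, Rrp12 and Bop1 had none in the table used. The E-box CACGTG, which reads the same on both strands, was the only motif searched. It was present in the windows of 8 of 35 members, namely Mybbp1a, Wdr43, Nop2, Utp18, Tsr1, Ltv1, Utp20 and Pes1. By window that is 8 of 39, or 20.5%, against 7.15% of all 32851 windows and 9.59% of the windows of genes named in the expression table. The windows below are those of the 4 such members with the highest mean value in T cells, and are shown to place the E-box relative to the start site. Mybbp1a and Nop2 were called higher and Wdr43 and Utp18 lower at 10 µM than in naive cells, so the letters were present in windows of genes that moved either way. Capitals mark the E-box, which starts at base 41 after the window's start site in Mybbp1a and 18 after it in Wdr43, and at -60 in Nop2 and -20 in Utp18. The start site of the Wdr43 window lies downstream of the first base of its gene record, 71616178. The windows lie at chr11:72441077-72441376, chr17:71615965-71616264 and chr6:125131633-125131932 on the plus strand and at chr11:93885717-93886016 on the minus strand.
Mybbp1a: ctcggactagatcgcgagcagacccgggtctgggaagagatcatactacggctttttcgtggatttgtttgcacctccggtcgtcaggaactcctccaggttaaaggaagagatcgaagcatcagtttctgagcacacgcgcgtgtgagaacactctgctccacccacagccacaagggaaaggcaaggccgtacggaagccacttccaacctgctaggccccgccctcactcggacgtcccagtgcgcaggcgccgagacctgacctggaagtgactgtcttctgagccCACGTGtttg
Wdr43: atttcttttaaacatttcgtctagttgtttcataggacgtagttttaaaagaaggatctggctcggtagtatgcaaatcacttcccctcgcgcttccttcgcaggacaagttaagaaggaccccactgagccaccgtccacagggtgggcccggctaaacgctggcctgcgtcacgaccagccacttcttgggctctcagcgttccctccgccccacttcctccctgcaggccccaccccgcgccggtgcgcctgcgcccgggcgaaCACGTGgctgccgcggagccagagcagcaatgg
Nop2: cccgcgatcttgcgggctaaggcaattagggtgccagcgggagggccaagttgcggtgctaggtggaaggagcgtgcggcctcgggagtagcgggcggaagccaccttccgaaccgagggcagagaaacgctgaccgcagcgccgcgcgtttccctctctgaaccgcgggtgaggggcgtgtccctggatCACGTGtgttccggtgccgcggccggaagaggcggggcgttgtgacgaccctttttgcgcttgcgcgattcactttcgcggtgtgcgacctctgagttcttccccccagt
Utp18: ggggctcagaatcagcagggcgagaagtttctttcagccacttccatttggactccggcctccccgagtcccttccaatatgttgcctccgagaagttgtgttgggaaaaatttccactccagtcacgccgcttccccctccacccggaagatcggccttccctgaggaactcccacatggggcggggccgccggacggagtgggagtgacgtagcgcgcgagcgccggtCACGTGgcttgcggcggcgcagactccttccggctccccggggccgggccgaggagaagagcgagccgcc
A match describes the letters in the window only and does not show that MYC was bound there.

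Expression values are read counts divided by a factor per library, called normalized values here. Reads in named genes numbered 27789 to 97757 in naive libraries, 156941 to 733009 in activated ones and 201627 to 352001 in P13.9. A naive library therefore moves in coarse steps, with 1 read worth 2.17 to 6.55, against 0.167 to 0.872 in activated libraries. Of the 40 members, 3 had no naive read and 25 had 10 or fewer naive reads in all 3 libraries together. Replicates correlated over genes at 0.581 to 0.757 in naive cells and at 0.893 to 0.975 in activated cells. All 12 T cell markers on the list used were read in every T cell group and their summed value was at most 9.36 in a P13.9 library. The summed value of 17 fibroblast markers was 859 to 915 in P13.9, 26.0 to 50.8 in naive libraries, 209 to 317 at 0.01 µM, 49.1 to 94.0 at 0.1 µM, 35.8 to 75.6 at 1.0 µM and 17.5 to 27.4 at 10 µM. Relative to P13.9, the level of 7 of these markers was 34.9% ± 10.5 in the 0.01 µM group, 8.74% ± 3.33 in the 0.1 µM group, 6.15% ± 2.81 in the 1.0 µM group and 2.21% ± 0.653 in the 10 µM group (SD, n = 3 each), which is called the P13.9 transcript share here. In naive cells, with 7 of the 17 markers at 0, the same estimate was 2.75% ± 2.53. Fewer cells of a type and less RNA per cell cannot be told apart in these bulk libraries.

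At 10 µM, the 4 H/ACA genes, the assembly factors Bysl, Nop2, Noc2l, Bop1 and Noc4l, and Myc were called higher than in naive cells, while Ncl, Nop58, Gnl3, Wdr43 and Utp18 were called lower. Myc was called at no other dose, and Gnl3 and Wdr43 were not called at 0.01 µM. Members passed a filter on low values in 36 of 40 cases, and Polr1b, Fbl, Pes1 and Noc3l did not. Tested with limma on log2(value + 1) and called at an adjusted p below 0.05 over 7264 genes, 12 members were higher and 5 lower at 10 µM than in naive cells. Over all genes tested, 57.1% were called in this comparison, 24.3% higher and 32.8% lower. The median log2 change was 0.61 over the members and -0.07 over all genes. Groups did not overlap for 14 of the 36, against 56.2% of all genes. The split differed under other scalings and models: 15 members were higher and 3 lower with quantile normalization, 16 and 3 with edgeR (55.6% of all genes called), and 16 and 2 with scaling to total reads, where the median of all genes was itself 0.21, 0.35 and 0.46. At 1.0 µM, 4 members were higher and 5 lower than in naive cells, among 54.7% of all genes called (23.3% higher, 31.4% lower). At 0.1 µM, 2 members were higher and 5 lower, among 56.3% called (24.9% higher, 31.5% lower). At 0.01 µM, 5 were higher and 3 lower, among 49.4% called (21.7% higher, 27.7% lower). With scaling to total reads the same 3 splits were 11 and 2, 12 and 3, and 13 and 0. Shares of all genes called are not given here for this scaling or for quantile normalization. Splits under these settings can thus not be set against all genes and are not read as a result about the members. All 4 comparisons share the naive libraries. Of the calls at 10 µM, those of Nhp2, Gar1, Bysl, Nop2, Noc2l, Nop58 and Ncl were kept under each setting in which the gene was tested and with each library left out. Markers of myeloid and dendritic cells moved with these comparisons: the summed value of 7 of them was 23.4 to 36.9 in activated libraries and 93.7 to 138.6 in naive ones, with Adgre1 and Itgax at 0 in naive cells. The same sum was 91.5 to 120.4 in P13.9 fibroblasts, with Itgam, Adgre1, Itgax and Fcer1g at 0, so it is not specific to myeloid cells. CD8 and NK cell markers, of which 4 of 5 are in the table, summed to 0 to 5.94 in activated libraries and 0 to 15.6 in naive ones, where Cd8a and Cd8b1 were at 0. Their part in the results was not tested. Bysl, Nop2, Nop58, Ncl and Utp18 passed the test at every dose. Utp18 was kept in only 3 of 9 other settings at 10, 1.0 and 0.1 µM and in 2 of 9 at 0.01 µM, whereas Bysl and Nop2 were kept in all 9 at each dose. At 0.01 µM, Nop58 was kept in 4 of 10 and Ncl in 5 of 10.

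**Figure D1:**
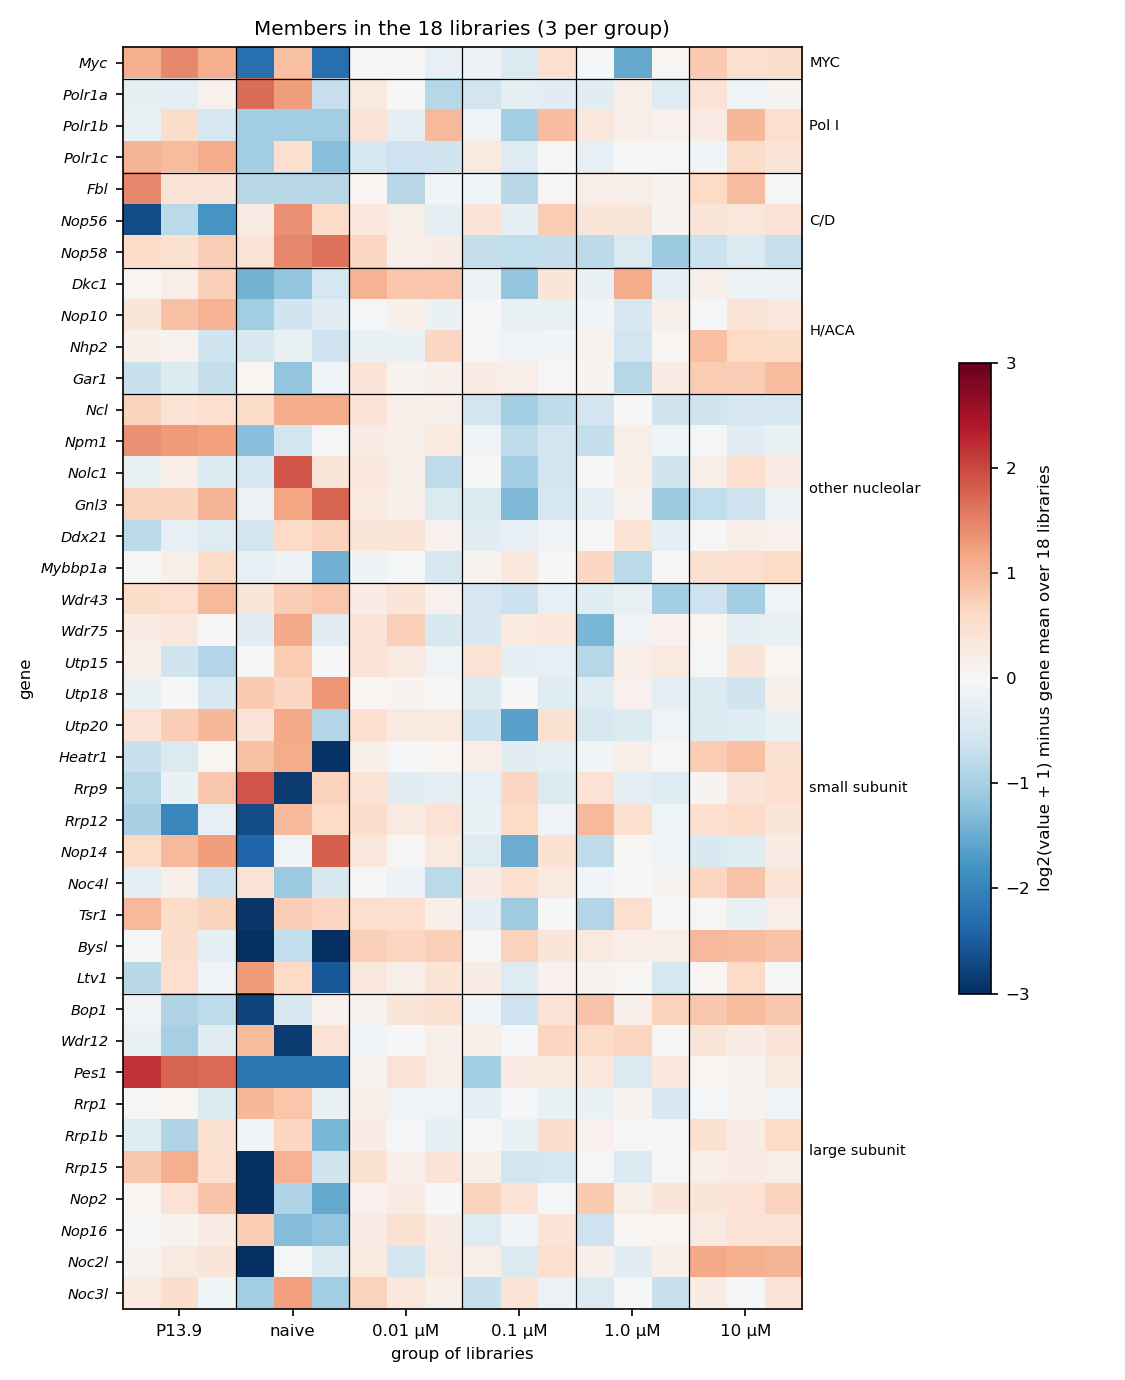
Each row is a member and each column a library, with 3 columns per group. Color gives log2(normalized value + 1) minus the mean of the gene over the 18 libraries, and color ends at ±3. Rows are grouped by role from Myc at the top to large subunit assembly at the bottom. The naive columns vary most within their group, and Nop58 and Wdr43 are redder in all P13.9 and naive libraries than at 0.1, 1.0 and 10 µM.

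Myc (chr15:61985341-61990361) had normalized values of 0, 7.81 and 0 in naive cells, 3.85, 3.94 and 3.04 at 0.01 µM, 3.35, 2.61 and 5.8 at 0.1 µM, 3.67, 0.669 and 4 at 1.0 µM, and 7.34, 5.82 and 5.94 at 10 µM. Naive cells held 2 Myc reads in all, both in the library naive 2, so the naive range encloses the values of all activated groups. Myc averaged 6.37 ± 0.847 at 10 µM and 2.6 ± 4.51 in naive cells (SD, n = 3 each), with a log2 change of 1.83 ± 0.68 (limma SE, adjusted p = 0.0312). From the reads, the ratio of 10 µM to naive was 2.76 with an exact 95% counting interval of 0.737 to 23.2. Myc passed the filter on low values only through the 10 µM libraries, since among other T cell libraries only naive 2 and 0.1 µM C reached 5. That it was tested thus depended on the group in which it was called higher. Without the filter the limma adjusted p was 0.0509. The call was lost when any of 5 of the 6 libraries was left out (adjusted p 0.0607 to 0.141). It was kept without naive 2, the library that holds both naive reads. All 10 µM libraries lay above all libraries of the other doses, though the lowest exceeded 0.1 µM C by less than 0.1. The log2 changes were 0.68 ± 0.68 against 0.01 µM, 0.63 ± 0.68 against 0.1 µM and 1.11 ± 0.68 against 1.0 µM, and none of them was called.

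RNA polymerase I was represented by its largest subunit Polr1a, another core subunit Polr1b and Polr1c, which RNA polymerases I and III share. Polr1c had 13.1, 39 and 10.8 in naive cells, 18.9, 17.6 and 17.9 at 0.01 µM, 33.8, 20.9 and 28.2 at 0.1 µM, 23.1, 28.1 and 26.4 at 1.0 µM, and 26.3, 40.8 and 36.4 at 10 µM. At 10 µM it was called higher than in naive cells, with a log2 change of 0.89 ± 0.36 and an adjusted p of 0.0449 (limma), though naive 2 lay within the 10 µM range. Without the library naive 1 the adjusted p was 0.119, without naive 3 it was 0.202, without 10 µM B 0.141 and without 10 µM C 0.109. After P13.9 subtraction it was 0.277. Polr1a had 26.2, 19.5 and 4.33 in naive cells, 9.38, 7.65 and 3.71 at 0.01 µM, 4.88, 6.1 and 5.8 at 0.1 µM, 5.77, 8.69 and 5.53 at 1.0 µM, and 10.5, 6.85 and 8.05 at 10 µM. The 10 µM values lay inside the naive range, and the log2 change of -0.62 ± 0.51 was not called. Polr1b had 0, 0 and 0 in naive cells, 1.67, 0.696 and 3.04 at 0.01 µM, 0.915, 0 and 2.9 at 0.1 µM, 1.57, 1.34 and 1.23 at 1.0 µM, and 1.41, 3.08 and 1.92 at 10 µM, too low to pass the filter. Its 10 µM mean of 2.14 ± 0.857 lies under the floor that 3 naive reads allow, so no fold is given.

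Among the box C/D proteins, Nop58, a core scaffold, was lower after activation. Its values were 26.2, 54.7 and 62.8 in naive cells, 30.8, 22 and 23.3 at 0.01 µM, 11.6, 11.3 and 11.6 at 0.1 µM, 11, 14.4 and 8.61 at 1.0 µM, and 12.1, 14.4 and 11.7 at 10 µM. Libraries at 0.1, 1.0 and 10 µM all lay below every naive and every 0.01 µM library. Nop58 changed by -1.75 ± 0.30 on the log2 scale at 10 µM against naive cells (adjusted p = 0.000152, limma), and by -0.81 ± 0.30 at 0.01 µM (adjusted p = 0.0343). The call at 0.01 µM was lost with edgeR (adjusted p = 0.234) and without 4 of 6 libraries in turn (0.0943 to 0.137), whereas the calls at the other doses were kept under each alternative run. Its partner Nop56 had 6.55, 15.6 and 8.66 in naive cells, 7.03, 6.26 and 4.39 at 0.01 µM, 7.62, 4.36 and 9.94 at 0.1 µM, 7.35, 7.35 and 5.84 at 1.0 µM, and 7.34, 7.19 and 7.66 at 10 µM. All doses overlapped the naive range in at least 1 library, and no dose was called. Fbl, the methyltransferase of the particle, had 0, 0 and 0 in naive cells, 0.837, 0 and 0.675 at 0.01 µM, 0.61, 0 and 0.828 at 0.1 µM, 1.05, 1 and 0.922 at 1.0 µM, and 1.69, 2.4 and 0.766 at 10 µM. These values are too low to pass the filter, and no fold is given.

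Among the assembly roles, box H/ACA was the group in which every gene was called higher at 10 µM than in naive cells, 4 of 4, where 24.3% of all genes were called higher. Nhp2, a small core protein, had 19.7, 23.4 and 17.3 in naive cells, 23.3, 23.6 and 42.8 at 0.01 µM, 26.5, 25.3 and 25.7 at 0.1 µM, 29.4, 18.1 and 28.3 at 1.0 µM, and 52, 41.4 and 40.6 at 10 µM. Its 10 µM libraries lay above all naive, 0.1 µM and 1.0 µM libraries, and only 0.01 µM C reached their range. Nhp2 averaged 44.7 ± 6.33 at 10 µM, against 20.1 ± 3.08 in naive cells (SD, n = 3 each), a log2 change of 1.11 ± 0.25 with an adjusted p of 0.0017 (limma). Gar1, another subunit of the particle, had 19.7, 7.81 and 17.3 in naive cells, 25.1, 20.4 and 20.9 at 0.01 µM, 22.3, 21.8 and 19.5 at 0.1 µM, 19.9, 10.03 and 22.1 at 1.0 µM, and 32.5, 32.2 and 37.5 at 10 µM. No other T cell library reached the lowest 10 µM value of Gar1, and its log2 change against naive cells was 1.23 ± 0.32 (adjusted p = 0.00436). Nop10, the smallest subunit, had 19.7, 27.3 and 32.5 in naive cells, 40.03, 46.1 and 36.1 at 0.01 µM, 41.8, 35.7 and 35.6 at 0.1 µM, 39.4, 29.4 and 46.1 at 1.0 µM, and 40.4, 54.5 and 52.7 at 10 µM. The 10 µM libraries lay above all naive libraries, with a log2 change of 0.88 ± 0.22 (adjusted p = 0.00329). This call was lost with array weights (0.105) and after subtraction of the P13.9 share (0.156). Dkc1, the pseudouridine synthase, had its highest mean at the weakest dose, with 6.55, 7.81 and 13 in naive cells, 40.2, 34.8 and 34.7 at 0.01 µM, 17.1, 7.84 and 24.9 at 0.1 µM, 16.3, 42.5 and 15.4 at 1.0 µM, and 21.5, 17.1 and 17.2 at 10 µM. Its log2 change against naive cells was 1.94 ± 0.41 at 0.01 µM (adjusted p = 0.00115) and 1.00 ± 0.41 at 10 µM (adjusted p = 0.0481). The 10 µM call for Dkc1 was lost in 5 of 6 leave-outs (adjusted p 0.0808 to 0.130), all but that of naive 3, and in 4 settings, among them P13.9 subtraction (0.0824). At 0.01 µM, 2 of 4 H/ACA genes were called higher than in naive cells, at 0.1 µM 0 of 4 (1 at an unadjusted p below 0.05) and at 1.0 µM 1 of 4. Over all genes, 21.7% were called higher at 0.01 µM, 24.9% at 0.1 µM and 23.3% at 1.0 µM. Counts out of 4 genes are too small to be read as a dose pattern. By position, Dkc1 overlaps Mpp1 and Nhp2 overlaps Rmnd5b. Of members called in other groups, Bop1 overlaps Mroh1 and Scx, Mybbp1a overlaps Spns2, Gnl3 overlaps Glt8d1 and Nop56 overlaps Idh3b. Whether strand was used in counting is not given in the sources used here, so reads of overlapping genes may have been shared.

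**Figure D2:**
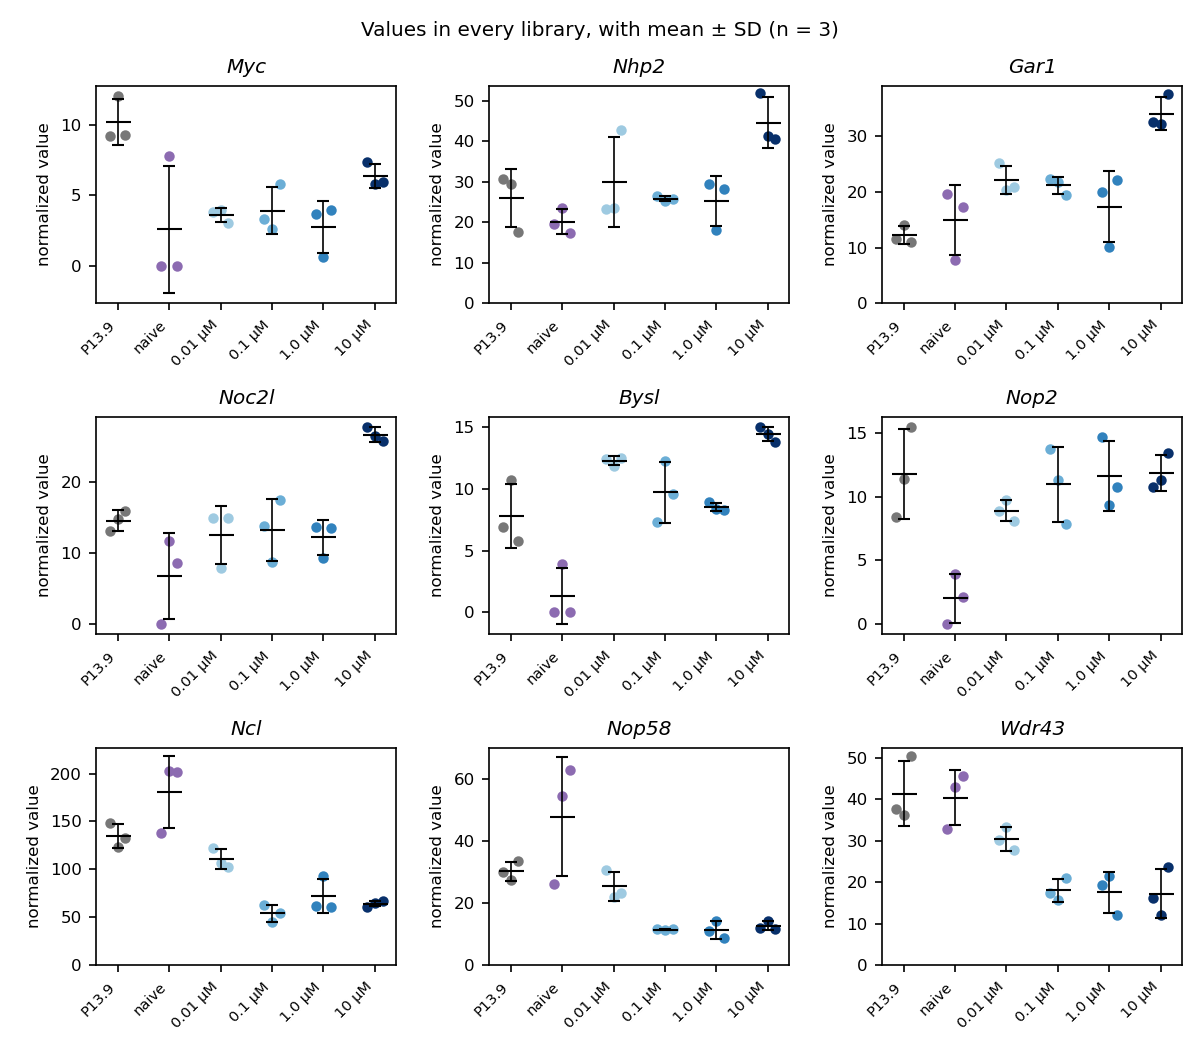
Each panel shows 1 gene, with the normalized value of each library as a point and the mean ± SD (n = 3) as a bar, and groups from P13.9 and naive cells to 10 µM. Gar1 and Noc2l at 10 µM lie above all other libraries, and Ncl, Nop58 and Wdr43 lie lower at 0.1, 1.0 and 10 µM than in naive cells.

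The abundant nucleolar proteins moved in different directions. Nucleolin, the product of Ncl (chr1:86344719-86359455), binds ribosomal RNA precursors and had 138, 203 and 201 in naive cells, 123, 106 and 103 at 0.01 µM, 63.1, 45.3 and 54.3 at 0.1 µM, 61.9, 92.6 and 61.2 at 1.0 µM, and 61, 64.7 and 66.5 at 10 µM. All activated libraries lay below all naive ones. Ncl averaged 64.1 ± 2.79 at 10 µM, against 181 ± 37.3 in naive cells (SD, n = 3 each), a log2 change of -1.46 ± 0.20 with an adjusted p of 1.92e-05 (limma). At 0.01 µM its log2 change was -0.69 ± 0.20 (adjusted p = 0.0107), which was lost with edgeR (0.640) and with scaling to total reads (0.947). Nucleophosmin, encoded by Npm1, is a chaperone of assembly and had 45.9, 74.2 and 108 in naive cells, 129, 122 and 135 at 0.01 µM, 102, 64.5 and 73.7 at 0.1 µM, 67.2, 124 and 101 at 1.0 µM, and 105, 88.7 and 93.7 at 10 µM. At 0.01 µM it was called higher than in naive cells, by 0.83 ± 0.28 (adjusted p = 0.0213), and at 10 µM it was not (0.41 ± 0.28, adjusted p = 0.22). After the estimated P13.9 share was subtracted, the 0.01 µM change of Npm1 turned to -0.64 and that of Nop10 to -0.48, with adjusted p of 0.283 and 0.452. Each of these calls was also lost in 3 of 6 leave-outs, at 0.0532 to 0.0797 for Npm1 and 0.0665 to 0.111 for Nop10. Ddx21, an RNA helicase, had 26.2, 58.6 and 62.8 in naive cells, 49.7, 51 and 42.5 at 0.01 µM, 30.5, 32.2 and 36 at 0.1 µM, 38.8, 52.2 and 32 at 1.0 µM, and 39.8, 44.2 and 42.5 at 10 µM, with overlapping groups and no call at any dose. Gnl3, which encodes nucleostemin, a GTPase of proliferating cells, had 8.47, 9.25 and 13 at 10 µM, against 13.1, 35.1 and 52 in naive cells. Its log2 change was -1.44 ± 0.45 (adjusted p = 0.0134), and the call was lost without naive 3 (0.0714) and with scaling to total reads (0.109). Mybbp1a, a nucleolar MYB-binding protein, had 26.2, 27.3 and 10.8 in naive cells, 27.8, 29.7 and 22.3 at 0.01 µM, 33.8, 39.2 and 31.1 at 0.1 µM, 48.8, 17.4 and 31.4 at 1.0 µM, and 43.2, 43.8 and 47.9 at 10 µM. Its log2 change at 10 µM against naive cells was 1.14 ± 0.35 (adjusted p = 0.0116), lost without naive 3 (0.0635). Nolc1, a snoRNP chaperone, had 11.3, 14.4 and 11.7 at 10 µM, against 6.55, 39 and 13 in naive cells, and was not called.

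Of the 13 small subunit genes, 2 were called higher and 2 lower at 10 µM than in naive cells. This is a smaller share than the 57.1% of all genes called (24.3% higher, 32.8% lower). Bysl (chr17:47599331-47611492), a late factor of small subunit maturation, had 0, 3.9 and 0 in naive cells, 12.4, 11.8 and 12.5 at 0.01 µM, 7.32, 12.2 and 9.53 at 0.1 µM, 8.92, 8.36 and 8.3 at 1.0 µM, and 15, 14.4 and 13.8 at 10 µM. Every activated library lay above every naive one, in which Bysl had 1 read in all. Its log2 change at 10 µM against naive cells was 3.18 ± 0.49 (adjusted p = 5.56e-05, limma). The ratio of reads was 12.4, with an exact 95% counting interval of 2.20 to 494. The Bysl locus overlaps Ccnd3, the gene of cyclin D3. Noc4l, which joins Nop14 in early assembly, had 13.1, 3.9 and 6.5 in naive cells, 9.21, 8.35 and 5.06 at 0.01 µM, 11.3, 13.95 and 12 at 0.1 µM, 8.92, 9.7 and 10.1 at 1.0 µM, and 15.5, 18.2 and 13 at 10 µM. Naive 1 lay just above the lowest 10 µM library. Noc4l was called higher at 10 µM than in naive cells, by 1.03 ± 0.36 (adjusted p = 0.0219), and lost the call without naive 2 (0.0875), 10 µM A (0.0560) or 10 µM B (0.0807). Wdr43, a part of the complex that couples transcription to processing, had 32.8, 42.9 and 45.5 in naive cells, 30.1, 33.4 and 27.7 at 0.01 µM, 17.4, 15.7 and 21.1 at 0.1 µM, 19.4, 21.4 and 12 at 1.0 µM, and 16.1, 12 and 23.6 at 10 µM. Libraries at 0.1, 1.0 and 10 µM lay below all naive and all 0.01 µM libraries, and the log2 change at 10 µM against naive cells was -1.22 ± 0.27 (adjusted p = 0.00131). Utp18, of the small subunit processome, had 5.08, 4.45 and 8.24 at 10 µM, against 13.1, 11.7 and 19.5 in naive cells, with a log2 change of -1.19 ± 0.32 (adjusted p = 0.00525). The 10 µM calls of Wdr43 and Utp18 were lost with edgeR (adjusted p 0.165 and 0.232) and with scaling to total reads (0.0667 and 0.112). At 0.01 µM the Utp18 call was lost in 4 of 6 leave-outs (0.0870 to 0.102). The other 9 genes of this group were not called: Wdr75 and Utp15, partners of Wdr43, Utp20 and Heatr1 of the processome, Rrp9, Rrp12, Nop14, Tsr1 and Ltv1. Of these 9, Rrp9, Rrp12, Nop14, Tsr1, Ltv1 and Heatr1 each had no read in at least 1 naive library.

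Large subunit factors were called in 3 of 8 tested cases at 10 µM against naive cells, all higher. Over all genes 57.1% were called, a larger share, with 24.3% higher. Noc2l (chr4:156234655-156247616), which with Noc3l escorts early large subunit particles, had 0, 11.7 and 8.66 in naive cells, 14.9, 7.88 and 14.8 at 0.01 µM, 13.7, 8.72 and 17.4 at 0.1 µM, 13.6, 9.36 and 13.5 at 1.0 µM, and 27.7, 26.4 and 25.7 at 10 µM. The 10 µM libraries stood above all other T cell libraries, of which the highest, 0.1 µM C, had 17.4. Noc2l averaged 26.6 ± 1.02 at 10 µM, against 6.79 ± 6.08 in naive cells (SD, n = 3 each), a log2 change of 2.47 ± 0.68 with an adjusted p of 0.00576 (limma). Its locus overlaps Klhl17 and Samd11. Nop2, a ribosomal RNA methyltransferase, had 0, 3.9 and 2.17 in naive cells, 8.88, 9.74 and 8.1 at 0.01 µM, 13.7, 11.3 and 7.87 at 0.1 µM, 14.7, 9.36 and 10.8 at 1.0 µM, and 10.7, 11.3 and 13.4 at 10 µM. Every activated library was above every naive one. Its log2 change at 10 µM was 2.36 ± 0.47 (adjusted p = 0.000533), and with 2 naive reads the ratio of reads was 5.25, with an interval of 1.43 to 43.8. Bop1 forms a processing complex with Pes1 and Wdr12, and had 11, 12.3 and 11.1 at 10 µM, against 0, 3.9 and 6.5 in naive cells. Its log2 change was 1.91 ± 0.57 (adjusted p = 0.00993). Wdr12 had 8.47, 7.54 and 8.62 at 10 µM, against 13.1, 0 and 8.66 in naive cells, and was not called. Pes1 had 3.67, 3.77 and 4.41 at 10 µM and no read in naive cells. With a floor of 3 reads set for the naive group, its ratio of 10 µM to naive was 1.17. This floor takes the 47 reads at 10 µM as exact, and Pes1 did not pass the filter, so no difference is claimed. Rrp1, an early large subunit factor, had 26.2, 23.4 and 10.8 in naive cells, 14.6, 11.8 and 11.5 at 0.01 µM, 10.4, 12.2 and 10.8 at 0.1 µM, 11, 13.7 and 8.92 at 1.0 µM, and 12.4, 13.7 and 11.5 at 10 µM, with overlapping groups and no call. Nop16 had 19.7, 3.9 and 4.33 in naive cells, 13.2, 15.8 and 13.2 at 0.01 µM, 8.23, 10.5 and 14.9 at 0.1 µM, 6.82, 11.7 and 11.7 at 1.0 µM, and 13.6, 15.4 and 14.9 at 10 µM and was not called at 10 µM against naive cells (0.94 ± 0.45, adjusted p = 0.0861). Rrp1b and Rrp15 were also not called there.

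**Figure D3:**
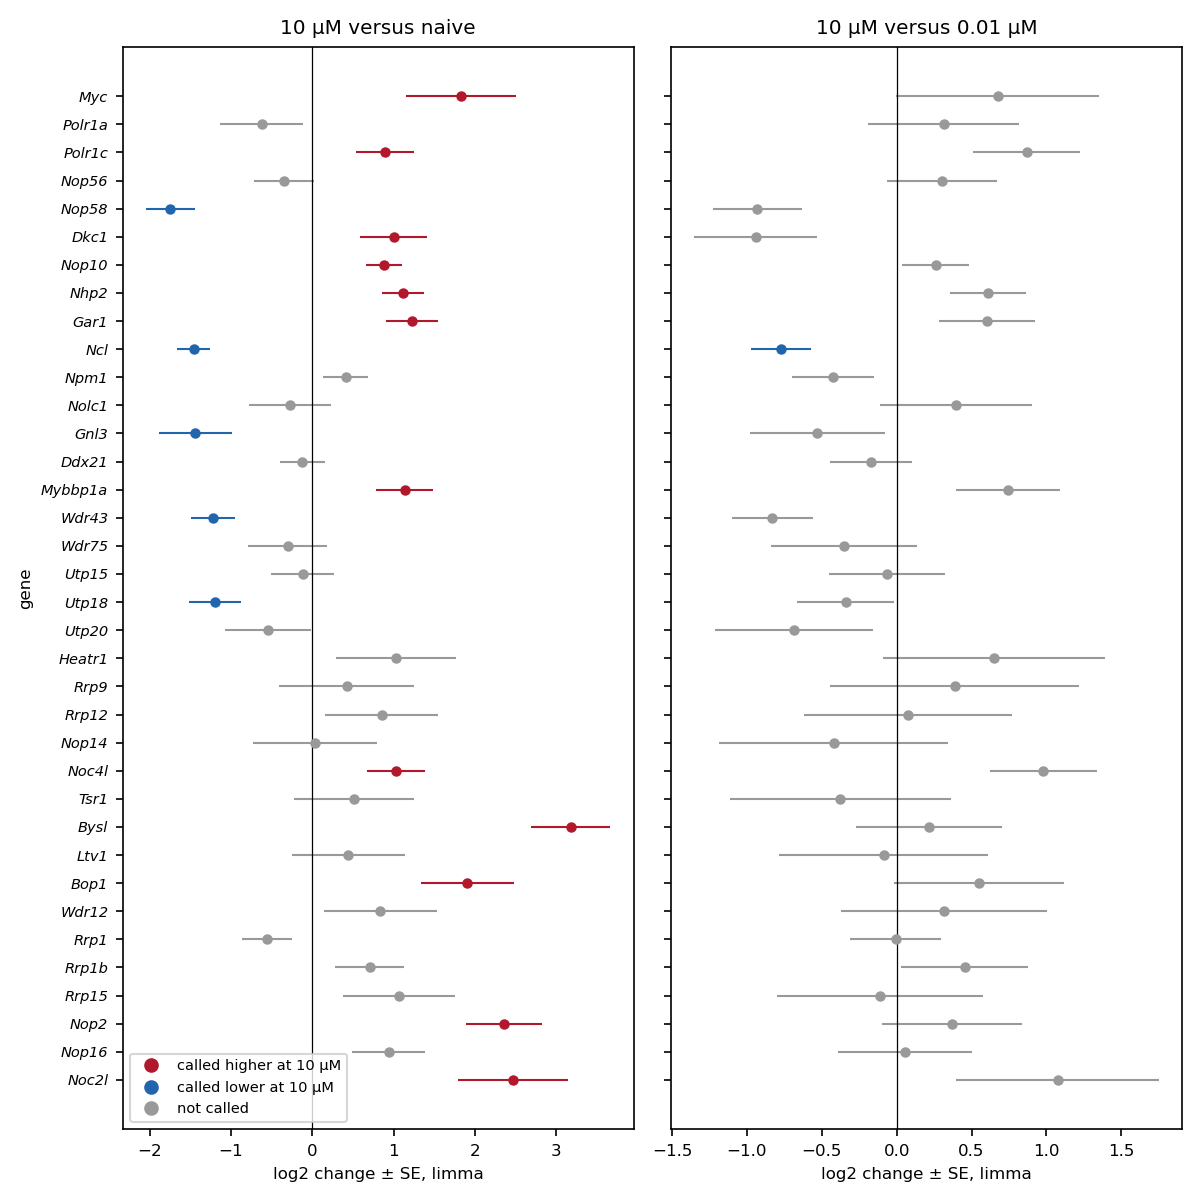
Points are log2 changes on the log2(value + 1) scale with the limma standard error as a bar, for 10 µM versus naive cells on the left and 10 µM versus 0.01 µM on the right, over the 36 tested members. Red and blue mark members called higher and lower at 10 µM and grey marks those not called. The left panel has 12 red and 5 blue points, and the right panel has 1 blue point, Ncl.

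Between doses, the values at 10 µM were higher for Noc2l, Noc4l, Polr1c, Mybbp1a, Nhp2 and Gar1 and lower for Ncl, Nop58, Wdr43 and Dkc1 than at 0.01 µM, but the count that passed the test depended on the fit. In the fit that shares its spread with the naive libraries, Ncl was the 1 member called, and it was lower at 10 µM with a log2 change of -0.77 ± 0.20 (adjusted p = 0.0262). Among all genes tested, 8.15% were called, 6.25% lower. The Ncl call was lost when any of the 6 libraries was left out (adjusted p 0.0652 to 0.127). In a fit of the 12 activated libraries alone, 7 members were called higher and 4 lower at 10 µM, among 32.5% of 5897 genes. Those called higher were Noc2l (1.08, adjusted p = 0.00411), Noc4l (0.98, 0.00310), Polr1c (0.87, 0.00262), Mybbp1a (0.75, 0.0295), Heatr1 (0.65, 0.0386), Nhp2 (0.61, 0.0430) and Gar1 (0.60, 0.0472). The 4 called lower were Dkc1 (-0.94, 0.0424), Nop58 (-0.93, 0.00243), Wdr43 (-0.83, 0.0128) and Ncl (-0.77, 0.00193). With edgeR on recovered reads, 8 were higher, these 7 and Bop1, and the same 4 were lower, among 35.9% of genes called. Groups at 10 and 0.01 µM did not overlap for 19 of the 36 members tested, against 49.8% of all genes tested.

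The P13.9 transcript share differed between these doses, at 2.21% ± 0.653 at 10 µM and 34.9% ± 10.5 at 0.01 µM (SD, n = 3 each). P13.9 itself had higher means than 10 µM libraries for Ncl, Nop58, Wdr43 and Dkc1, at 135, 30.3, 41.4 and 24.6, against 64.1, 12.7, 17.2 and 18.6. It also had a higher mean for Polr1c, at 57.1 against 34.5, although Polr1c was lower at 0.01 µM than at 10 µM. After subtraction of the estimated share, Polr1c was the 1 member called at 10 µM against 0.01 µM (higher, log2 change 4.14, adjusted p = 0.00123), among 9.25% of genes called. For Polr1c, 34.9% of the P13.9 mean of 57.1 is more than the 0.01 µM mean of 18.1, so the size of this change rests on the subtraction. Ncl then had -0.68 (adjusted p = 0.114), Nop58 -0.84 (0.149), Wdr43 -0.61 (0.281) and Dkc1 -1.28 (0.0995). Noc2l had 1.22 (0.347), Noc4l 1.14 (0.130), Mybbp1a 1.20 (0.115), Nhp2 0.43 (0.467) and Gar1 0.22 (0.777). Heatr1 had 0.41 (0.835). Of the 11 members called in the fit of activated libraries alone, the other 10 were thus not called after the subtraction. The mean in P13.9 exceeded that at 0.01 µM for 9 of the 16 members that were lower at 10 µM (56.2%) and for 8 of the 20 that were higher (40%), against 57.5% and 45% of all genes.

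Sample numbers in the labels form 2 runs: the first holds the 10 and 0.1 µM groups, and the other holds naive, P13.9, 1.0 and 0.01 µM. Whether the runs were processed apart is not given in the sources used here. Within a run, 10 µM could be compared with 0.1 µM, where 0 of 36 members were called by limma (1 at an unadjusted p below 0.05), among 0.0964% of all genes. The log2 change was above 0 for 33 of these 36 members, with a median of 0.31 against -0.03 over all genes. The groups did not overlap for 12 of 36 members, against 21% of all genes. With edgeR, Noc2l (1.00 ± 0.68 in limma, 1.00 in edgeR, adjusted p = 0.0351) and Nhp2 (0.86, 0.0398) were called higher, among 1.45% of genes. The fit of activated libraries alone called Noc2l (adjusted p = 0.0498), among 2.26%. Against 1.0 µM, which lies in the other run, 10 µM gave 0 calls by limma (2 at an unadjusted p below 0.05), among 0.0826% of genes. There 30 of 36 members were above 0, with a median of 0.30 against -0.01 over all genes. The groups did not overlap for 10 of 36, against 19.6% of all genes. edgeR called Gar1 (1.01, adjusted p = 0.00992), Noc2l (1.16, 0.00784) and Nhp2 (0.86, 0.0268) higher at 10 µM, among 2.42% of genes. Activated libraries alone gave Gar1 (0.0230) and Noc2l (0.0317), among 2.24%. Both the 0.1 µM and the 1.0 µM comparison share the 10 µM libraries.

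The other within-run dose comparison, 1.0 against 0.01 µM, called Nop58 alone, lower with a log2 change of -1.11 ± 0.30 (adjusted p = 0.0494), among 4.3% of genes (2.66% lower). This call was lost when any of the 6 libraries was left out (0.0523 to 0.234). Nop58, Ncl and Wdr43 were called lower both in the fit of activated libraries alone, among 22.9% of genes, and with edgeR, among 22.8%. At 0.1 against 0.01 µM, Ncl alone was called, lower with a log2 change of -1.02 ± 0.20 (adjusted p = 0.0111), among 5.59% of genes (3.41% lower), and lost the call without 0.01 µM A (0.0744), 0.01 µM B (0.0633) or 0.1 µM B (0.0566). No member was called between 1.0 and 0.1 µM by limma, edgeR or DESeq2, nor had any an unadjusted p below 0.05 in limma, among 0% of genes called. The slope of the log2 value over dose was called for no member (6 at an unadjusted p below 0.05), among 6.53% of genes. With edgeR 11 of 36 were called, among 30.4% of genes: Ncl, Nop58 and Wdr43 fell with dose and Noc2l, Polr1c, Noc4l, Bop1, Heatr1, Mybbp1a, Nhp2 and Gar1 rose. This count is near the share over all genes and is not read as a result about the members as a set.

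Member means were highest at an end of the dose range in most cases: at 10 µM for 20 of the 40, at 0.01 µM for 18, at 1.0 µM for 2 and at 0.1 µM for none. Among the genes tested, the highest mean was at 10 µM for 22.3%, at 0.01 µM for 40.3%, at 1.0 µM for 15.6% and at 0.1 µM for 21.8%. The lowest mean was at 0.1 µM for 20 members, at 1.0 µM for 12, at 0.01 µM for 7 and at 10 µM for 1. Among the genes tested it was at 0.1 µM for 18.4%, at 1.0 µM for 18.6%, at 0.01 µM for 34.5% and at 10 µM for 28.5%. The summed value of the 40 members was also lowest at 0.1 µM. It was 754 ± 147 in naive cells, 738 ± 41.2 at 0.01 µM, 552 ± 51.6 in the 0.1 µM group, 601 ± 49.2 in the 1.0 µM group and 714 ± 13.1 at 10 µM (SD, n = 3 each). Without Ncl and Npm1, the most abundant members, the order of the T cell groups changed and 10 µM was highest among them. The sums were then 497 ± 95.9 in naive cells, 499 ± 33.1 at 0.01 µM, 418 ± 33.1 in the 0.1 µM group, 431 ± 20 in the 1.0 µM group and 554 ± 17.1 at 10 µM. P13.9 lay above all T cell groups in both sums, at 972 ± 27.4 with all 40 members and 567 ± 46.5 without Ncl and Npm1. With all 40 members, the 10 µM libraries spanned 701 to 727, above the highest at 0.1 µM (586) and at 1.0 µM (657). With the P13.9 share subtracted, the sums were 658 ± 119 at 0.01 µM, 516 ± 59.9 in the 0.1 µM group, 579.7 ± 57.0 in the 1.0 µM group and 711 ± 13.5 at 10 µM. The place of naive cells depended on scaling: of the reads in named genes the members took 0.56% ± 0.0146 at 10 µM and 0.374% ± 0.0483 in naive cells, whereas the sums of normalized values were 714 and 754. By this share of reads, 0.01 µM (0.589% ± 0.047) and P13.9 (0.624% ± 0.0181) lay above 10 µM.

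**Figure D4:**
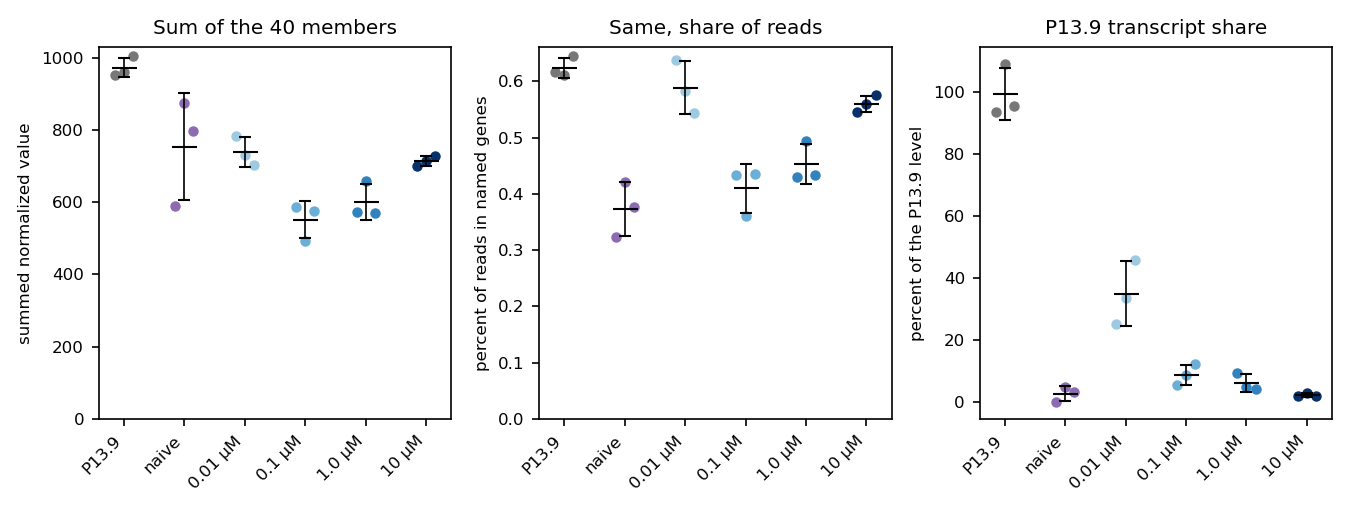
The left panel shows the summed normalized value of the 40 members in each library, the middle panel their share of the reads in named genes in percent, and the right panel the P13.9 transcript share by 7 fibroblast markers, as a percentage of the P13.9 level. Points are libraries and bars are the mean ± SD (n = 3). The 10 µM sums (701 to 727) lie above those at 0.1 and 1.0 µM, and naive cells rank differently in the left and middle panels.

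Npm1, Myc and Pes1 were higher and Nop56 was lower in P13.9 fibroblasts than in naive T cells. In a fit of all 18 libraries, 37 members were tested, and 11 were higher and 3 lower in P13.9 than in naive cells, among 59% of 8179 genes called (29.9% higher, 29.1% lower). The median log2 change was 0.09 over members and 0.16 over all genes. Npm1 had 285, 267 and 259 in P13.9, against 45.9, 74.2 and 108 in naive cells, a log2 change of 1.90 ± 0.26 (adjusted p = 4.94e-06). Myc had 9.2, 12 and 9.28 in P13.9, above all naive libraries (2.43 ± 0.64, adjusted p = 0.00346). Pes1 had 19.2, 14 and 13.7 in P13.9 and no naive read, and its ratio was 4.41 with the floor of 3 naive reads. It passed the filter of this fit only through P13.9, since of the T cell libraries 0.01 µM B alone reached 5. Its place among the 11 thus depended on the group in which it is high. Nop56 had 0, 2.67 and 0.884 in P13.9, against 6.55, 15.6 and 8.66 in naive cells, and was lower with a log2 change of -2.48 ± 0.44 (adjusted p = 0.000106). The other members called higher in P13.9 were Bysl, Nop2, Noc2l, Rrp15, Polr1c, Nop10, Dkc1 and Mybbp1a, and the others called lower were Utp18 and Ddx21. Rrp15, Noc2l and Ddx21 each lost the call in 4 of 6 leave-outs, with adjusted p of up to 0.216, 0.173 and 0.143, and Mybbp1a in 3 (up to 0.187). With edgeR, Ddx21 (0.150), Utp18 (0.0961) and Rrp15 (0.0529) were not called.

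Against the 10 µM T cells, 6 members were higher and 5 lower in P13.9, among 42% of genes called (26.4% higher, 15.6% lower). Higher were Npm1 (1.49 ± 0.26), Ncl (1.06 ± 0.19), Wdr43 (1.25 ± 0.26), Pes1 (1.74 ± 0.38), Nop58 (1.19 ± 0.28) and Gnl3 (1.30 ± 0.42). Of these, Pes1 was tested only because its P13.9 values passed the filter. The lower members were Nop56 (-2.14 ± 0.44), the H/ACA genes Gar1 (-1.41 ± 0.31) and Nhp2 (-0.79 ± 0.27), Bop1 (-1.45 ± 0.54) and Noc4l (-0.90 ± 0.35). Of the 6 library leave-outs, 2 reduced the count to 7, namely P13.9 replicate 3 and 10 µM A. Bop1 and Noc4l each lost the call in 5 of 6 leave-outs (adjusted p 0.0816 to 0.126 and 0.0625 to 0.181), Gnl3 in 3 (0.0559 to 0.0685) and Nhp2 in 2 (0.0989 and 0.142). Other settings gave 6 higher and 13 lower with quantile normalization, 8 and 15 with edgeR (58% of all genes called), 10 and 12 with array weights, and 6 and 8 with scaling to total reads. Shares of all genes called higher and lower under these settings are not given here. These splits are thus not read as a result about the members.

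Genes that act beside the members were read from lists of the MYC network and of other ribosome assembly steps. Of 8 tested MYC network genes, 2 were higher and 4 lower at 10 µM than in naive cells, among 57.1% of all genes called (24.3% higher, 32.8% lower). Mxd3, which competes with MYC for MAX, was called higher, with a mean of 14.9 ± 3.45 at 10 µM and no naive read. Its ratio was 4.17 with a floor of 3 naive reads. Mxd4 averaged 6.22 ± 2.02 at 10 µM and 25.4 ± 5.45 in naive cells, a log2 change of -1.89 (adjusted p = 3.18e-05). Mga (-1.95), Mxd1 (-1.20) and Max (-0.79), the partner of MYC, were also lower. Mxd4 was lower at 10 µM than at 0.01 µM too (-0.98, adjusted p = 0.0384).

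Among 9 other RNA polymerase I genes tested, 2 were higher and 1 lower at 10 µM than in naive cells, a smaller share than the 57.1% of all genes. Ubtf, the upstream binding factor of ribosomal DNA, averaged 16.6 ± 1.99 at 10 µM and 6.95 ± 0.741 in naive cells, a log2 change of 1.15 (adjusted p = 0.00157). Rrn3, the initiation factor, averaged 8.69 ± 0.532 at 10 µM and 3.61 ± 6.25 in naive cells, where it had 5 reads. It was called higher (2.09, adjusted p = 0.0163), although the groups overlapped. Polr1f was lower at 10 µM than in naive cells (-1.88, adjusted p = 0.000944) and than at 0.01 µM (-1.54, 0.0268). Tcof1 (-0.44, 0.247) was not called.

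In the remaining lists, 6 were called higher and 8 lower of 38 other large subunit genes at 10 µM against naive cells, 8 and 6 of 31 other small subunit genes, and 5 and 3 of 16 exosome and trimming genes. In each of these lists a smaller share was called than the 57.1% of all genes. Of the large subunit genes, Gtpbp4 (-1.95), the export adaptor Nmd3 (-2.32) and Brix1 (-1.66) were lower and Wdr18 (1.78) was higher. The small subunit list gave Riok1 (-2.65), an atypical kinase of late maturation, and Utp3 (-1.19) as lower. Tbl3 and Nol6 were higher, each with 1 naive read, and their ratios of reads were 6.48 (interval 1.13 to 259) and 6.19 (1.08 to 247). Xrn2, a nuclear exonuclease, was lower (-2.11), and the exosome subunits Exosc5 (2.70) and Exosc7 (1.44) were higher. Exosc8 had 3 naive reads and a ratio of 4.47 (1.51 to 21.9). Apart from Mxd4 and Polr1f, no gene of these lists was called between 10 and 0.01 µM by limma.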

How the data were processed

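Normalized signal, with 1 column per library, is what the authors deposited. DESeq2, HTSeq 0.9.1, STAR 2.6.1d and FastQC 0.11.8 appear in the submitters' processing notes with the build mm10, without role or order. The authors' scaling was by median of ratios, as the deposited table is named. Annotation and settings: not given in the sources used here. Libraries were 3′ QuantSeq, per the labels' protocols. Dividing each value by the step of 1 read gave whole reads for 99.9996% of 284544 values (tolerance 1e-05 reads, 1 exception). Of 15808 features, 110 unnamed ones, with 12.4% to 15.6% of naive reads and 1.94% to 5.36% elsewhere, were left out. Depth is that of these reads, 27789 to 733009 per library. The labels state a depth of 4000000 reads per library, and why the table holds fewer is not known here. Intervals and floors assume that 1 step is 1 read. Counting intervals and floors cover counting error only, and a floor takes the reads of the other group as exact.

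The main test was limma 3.58.1 in R 4.3.3 (lmFit, eBayes with trend) on log2(value + 1), which understates changes of low genes. Genes were kept with 3 or more libraries of the fit at 5 or above: 15 T cell libraries, or all 18 for comparisons with P13.9. Benjamini-Hochberg adjustment ran over all genes of a comparison. Alternatives were edgeR 4.0.16 and DESeq2 1.42.0 on recovered reads, other pseudocounts, filters, scalings and weights, activated libraries only, a replicate block, subtraction of the P13.9 share, and each library left out. Scaling to total reads and voom were chosen after seeing the data. The scripts were tested on simulated data.

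Groups came from sample titles. Naive and P13.9 columns carry numbers, which only name the libraries. The letters A, B and C did not pair activated libraries: same-letter deviations correlated at -0.197 to 0.200 over 18 pairs. Members and lists were chosen with earlier results of these data known. All 40 members could be named. Values in every library are given for Myc, the 3 members of each role with the highest mean in T cells, the 8 with the smallest adjusted p for dose, and others the results turn on. From the other lists, the 4 genes with the smallest adjusted p at 10 µM against naive cells were named, and Max as the partner of MYC. No protein sequences were used.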

Additional observations from a re-analysis of the deposited data

How the results depend on the processing

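Between activated and naive cells, the counts of called members kept within 1.5 times of 17 (10 µM), 9 (1.0 µM), 7 (0.1 µM) and 8 (0.01 µM) except in these cases. A mean of at least 20, which leaves fewer genes, gave 9, 4, 3 and 5. Array weights gave 10 at 10 µM and 4 at 0.01 µM, and subtraction of the P13.9 share gave 11 at 10 µM. At 0.1 µM, quantile normalization gave 14, edgeR 13 and scaling to total reads 15, and at 0.01 µM scaling to total reads gave 13. Over all genes, edgeR called 51.6% at 0.1 µM and P13.9 subtraction 52% at 10 µM, and shares for the other settings named here are not given. Leaving out a library gave 13 to 17 at 10 µM, 7 to 15 at 1.0 µM (15 without naive 3), 7 to 15 at 0.1 µM (15 without naive 1 or naive 3, 13 without naive 2) and 5 to 12 at 0.01 µM (5 without 0.01 µM A, B or C).

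Between doses the limma counts were 1 for 10 against 0.01 µM, 1 for 1.0 against 0.01 µM, 1 for 0.1 against 0.01 µM, and 0 for 10 against 0.1 µM, 10 against 1.0 µM, 1.0 against 0.1 µM and the slope. For 10 against 0.01 µM, edgeR gave 12, DESeq2 11, voom 11, array weights 15, activated libraries only 11, quantile normalization 3, and both the mean of 20 and scaling to total reads 2. For 1.0 against 0.01 µM the counts were 3 (edgeR), 4 (DESeq2), 3 (voom), 7 (array weights), 3 (activated only), 2 (quantile), 2 (scaling to total reads) and 0 (no filter). For 0.1 against 0.01 µM they were 6 (edgeR), 7 (DESeq2), 4 (voom), 8 (array weights), 8 (activated only), 4 (quantile), 3 (P13.9 subtracted) and 2 with a pseudocount of 5, the mean of 20 or scaling to total reads. For 10 against 0.1 µM, edgeR and array weights gave 2 and DESeq2 and activated only 1. For 10 against 1.0 µM, edgeR and DESeq2 gave 3, voom and activated only 2, and array weights 1. The slope gave 11 (edgeR), 11 (DESeq2), 9 (voom), 12 (array weights), 7 (activated only), 1 (quantile) and 1 (P13.9 subtracted). Over all genes, edgeR called 35.9%, 22.8% and 24.3% in the first 3 comparisons and 30.4% for the slope. The fit of activated libraries only called 32.5%, 22.9%, 29.1% and 27.4% of its genes in the same order. P13.9 subtraction called 7.68% for 0.1 against 0.01 µM and 6.83% for the slope. Shares for DESeq2, voom, array weights and the remaining settings are not given here, so their counts cannot be set against all genes. The cause of the differences between settings was not tested. Leaving out a library gave 0 to 1 for each of the first 3 comparisons and for the slope (1 without 1.0 µM B), and 0 for the other 3.

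With the replicate block, fitted on activated libraries because naive and P13.9 columns carry no letters, the counts were 9 (10 against 0.01 µM), 3 (1.0 against 0.01 µM), 7 (0.1 against 0.01 µM), 1 (10 against 0.1 µM), 2 (10 against 1.0 µM), 0 (1.0 against 0.1 µM) and 6 (slope). The letters did not pair the libraries, and shares of all genes called with the block are not given here.

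For P13.9, the count against naive cells was 14 and fell to 6 with a mean of 20 (10 to 18 with a library left out). Against 10 µM it was 11, with 6 (mean of 20), 19 (quantile), 23 (edgeR), 20 (DESeq2), 22 (array weights) and 21 (voom), and 7 to 11 with a library left out. With edgeR 58% of all genes were called against 10 µM, and shares for the other settings are not given here. The Myc change at 10 µM against naive cells kept its direction in all settings (0.73 to 2.15, and 1.31 to 2.88 with a library left out) and lost its call with no filter (adjusted p = 0.0509), DESeq2 (0.0768), array weights (0.0633) and P13.9 subtraction (0.0570). Among called members, Npm1 and Nop10 at 0.01 µM against naive cells turned below 0 with P13.9 subtraction, and no other called member changed sign in the settings run. Naive depth limits the set, since 25 of 40 members rest on 10 or fewer naive reads.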
